A study of Homo sapiens with 6 samples.

Results

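Most ZNF genes encode C2H2 zinc finger proteins, many of which bind DNA through a row of fingers that each read a few bases. Described here are the ZNF genes that HepG2 cells had at a clear level when given solvent alone. They were chosen as protein-coding genes with a ZNF-number symbol and a mean of at least 5 CPM, the count of a gene scaled to the total of its library, over the 3 DMSO libraries. The rule took 273 of 505 protein-coding ZNF genes, out of 52408 genes in the count table. The symbol alone stood for the family: 8 of the genes have a coding sequence in which no C2H2 finger was matched, among them ZNF703 and ZNF185, which encodes a LIM-domain protein. The rule used the DMSO level, so that level is given as a description and not as a finding.

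Many ZNF proteins also carry a KRAB box (Krüppel-associated box), which recruits the corepressor TRIM28. TRIM28 in turn brings the histone H3 lysine 9 methyltransferase SETDB1 and the HP1 proteins, and the bound region becomes heterochromatin. KRAB zinc finger proteins are best known for silencing transposons and for keeping imprints, and many of their genes stand side by side in clusters on human chromosome 19. Other ZNF proteins have no KRAB box and act as activators, as parts of chromatin complexes, on RNA or at the ribosome.

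RNA was sequenced from HepG2, a human liver cancer cell line. In one group of 3 libraries the cells had received 50 µM ellagic acid (EA), a plant polyphenol, and in the other group of 3 an equal volume of DMSO, the solvent. Both groups were collected after 24 h. The labels do not say whether replicates are separate cultures of this line, and the tests therefore speak only for the variation among these libraries.

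The 3 EA libraries held 15738089 to 19202292 reads and the 3 DMSO libraries 22987425 to 25973621, and 3 reads, the limit that a count of 0 allows, correspond to 0.116 to 0.191 CPM (counting error only). EA replicate 3 stood apart: its chi-square per degree of freedom against the other EA libraries was 13.4 and 15.5, against 3.56 to 4.59 for the remaining replicate pairs. All 10 hepatocyte and HepG2 markers were present, and their summed level was 13720 to 14060 CPM in EA libraries and 51330 to 53650 CPM in DMSO libraries, with 1 of the 10 higher and 9 lower. The blood markers PTPRC, CD68 and CD3E and the fibroblast markers COL1A2 and DCN were at 0 throughout. The 7 fibroblast markers together had 4.92 to 7.03 CPM in EA libraries and 16.5 to 17.6 CPM in DMSO libraries, with 2 lower. The 6 blood markers together had 1.98 to 2.22 CPM in EA libraries and 1.57 to 2.00 CPM in DMSO libraries. The 4 matched endothelial markers together had 3.335 to 4.51 CPM in EA libraries and 2.31 to 2.44 CPM in DMSO libraries. Of the blood and of the endothelial markers, 1 each was higher and 1 lower. Summed squamous markers were at 7.24 to 9.22 CPM in EA libraries and at most 0.087 CPM in DMSO libraries, while KRT5 was at 0. Of the 4 squamous markers, 3 (KRT5 among them) were under 1 CPM in every library. The part of these markers in the results below was not tested, and in bulk RNA fewer cells of a type and less RNA per cell cannot be told apart.

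More of these ZNF genes were higher than lower with EA. In edgeR's quasi-likelihood test at an adjusted p of 0.05, 166 of 273 rose, 63 fell and 44 did not pass. Of all 15648 genes tested, 81.0% were called, 40.5% higher and 40.5% lower. The ZNF genes were called about as often (83.9%) but in other proportions, 60.8% higher and 23.1% lower. Expressed protein-coding genes leaned the other way: among the 9808 protein-coding genes at 5 or more DMSO CPM, 35.1% were called higher and 50.2% lower. The median log2 fold change of the ZNF genes was 0.47, with quartiles at -0.17 and 1.03. Over all tested genes the median was 0.00, and over the 9808 expressed protein-coding genes it was -0.21. These sets are described side by side, and no test was made over the list.

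Large changes had the same lean. At 2-fold or more, 75 ZNF genes (27.5%) were called higher and 22 (8.06%) lower. Over all tested genes these shares were 23.4% and 21.5%, and over the expressed protein-coding genes 13.2% and 24.2%. The 2 groups of libraries did not overlap for 232 of the 273 (85.0%). That share was 82.9% over all tested genes and 87.0% over the expressed protein-coding genes. All EA libraries lay above all DMSO libraries for 167 of the ZNF genes (61.2%), against 41.4% of all tested genes and 36.1% of the expressed protein-coding genes. All EA libraries lay below for 65 (23.8%), against 41.5% of all tested genes and 51.0% of the expressed protein-coding genes. Mean levels of the ZNF genes lay between 2.18 and 314.7 CPM with EA (median 21.6 CPM), and between 5.04 and 202.7 CPM with DMSO (median 15.4 CPM). The lowest count of any of these genes was 32 reads in an EA library and 97 in a DMSO library, and all 273 passed the low-count filter.

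Each EA library showed the shift by itself. ZNF reads made up 1.15%, 1.11% and 1.10% of all reads in the EA libraries, against 0.698%, 0.708% and 0.721% in the DMSO libraries. The groups did not overlap, and EA replicate 3 lay with the other EA libraries. The median ZNF gene stood at 0.458, 0.464 and 0.465 relative to its DMSO mean on the log2 scale in the EA libraries, against -0.012, -0.009 and 0.023 in the DMSO libraries. The DMSO values lie near 0 by construction, because that mean is of the same DMSO libraries. Without EA replicate 3, 164 rose and 68 fell. When the genes were chosen on DMSO replicate 1 alone and EA was compared with the other DMSO libraries, 153 of 268 rose and 62 fell.

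At the threshold of 5 CPM, the genes just inside it were ZNF660, ZNF273 and ZNF296, with 5.02, 5.05 and 5.07 CPM in DMSO before TMM scaling. Just outside lay ZNF416, ZNF138 and ZNF675, with 4.999, 4.995 and 4.984 CPM. Both sides of the threshold held genes with different outcomes. With EA, ZNF660, which overlaps ZNF197 and ZKSCAN7, had 2.18 CPM, and ZNF675 had 11.7 CPM.

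**Figure D1:**
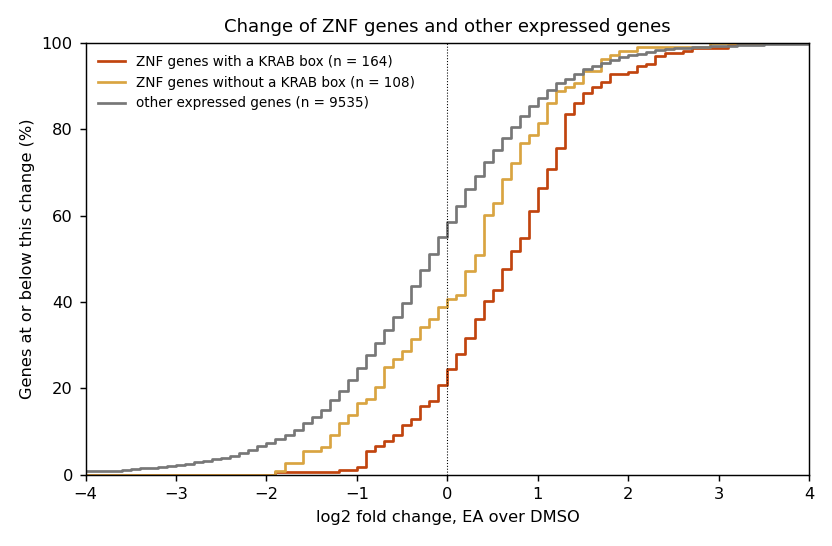
Cumulative share of genes (y axis, percent) at or below each log2 fold change of EA over DMSO (x axis), for ZNF genes with a KRAB box, ZNF genes without one and other expressed genes, those that code for protein at 5 or more DMSO CPM. At the medians the KRAB curve (0.67, n = 164) lies right of the curve without KRAB (0.24, n = 108), and that of the other genes (-0.23, n = 9535) lies farthest left; in the upper tail the curves meet and cross, and at a change of 2 they stand at 93.3%, 98.2% and 97.1%.

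The KRAB class held most of the genes that rose. A KRAB box was found in the translated coding sequences of 164 ZNF genes, out of 272 with such a sequence in GENCODE 29. Of these 164, 109 rose (66.5%), 26 fell (15.9%) and 29 did not pass, with a median log2 fold change of 0.67. Of the 108 without a KRAB box, 57 rose (52.8%), 36 fell (33.3%) and 15 did not pass, with a median of 0.24. At 2-fold or more the split was 55 higher and 3 lower with a KRAB box, and 20 higher and 18 lower without. The difference between the classes was not tested.

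Reads of the KRAB genes were 0.576%, 0.555% and 0.534% of the library with EA, against 0.279%, 0.282% and 0.290% with DMSO. Reads of the genes without KRAB were 0.578%, 0.558% and 0.565% with EA, against 0.417%, 0.426% and 0.430% with DMSO. In both classes every EA library lay above every DMSO library. A SCAN domain, a dimerisation domain found in some zinc finger proteins, was matched in 13 genes, of which 10 rose and 2 fell. The 7 with both SCAN and KRAB matched held 6 that rose and none that fell by edgeR's test. ZNF500, which fell (log2 fold change -1.22), is not among the 7, because its divergent KRAB box was not matched. SCAN was matched by a core pattern, so divergent SCAN domains may be missed as well. The counts of the 13 and the 7 hold only for genes with a match, and SCAN genes that fell may lie outside them.

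Over all classed ZNF genes, the share that rose was larger in the classes with more fingers. With 0 to 2 matched C2H2 fingers, 7 of 23 rose and 11 fell, with a median log2 fold change of -0.15. With 3 to 6 fingers 23 of 43 rose and 14 fell (median 0.35), with 7 to 10 fingers 46 of 79 rose and 20 fell (median 0.45), and with 11 to 14 fingers 47 of 73 rose and 12 fell (median 0.53). With 15 or more, 43 of 54 rose and 5 fell (median 0.89). Within the KRAB genes the classes did not climb steadily. There 10 of 16 rose with 3 to 6 fingers (median 0.64), 26 of 45 with 7 to 10 (0.71), 38 of 57 with 11 to 14 (0.53) and 35 of 43 with 15 or more (0.91), while none of 3 rose with 0 to 2. Across the 272 genes Spearman's rho between fingers and log2 fold change was 0.31. Within the KRAB genes rho was 0.20 (n = 164), and within the others 0.29 (n = 108). Genes are not independent replicates, and fingers go with other properties: rho with the change was 0.18 for transcript length and -0.26 for transcript GC content (n = 273 each), and the part of length and GC in the finger trend was not tested. The DMSO level itself, which chose the genes, had a rho of 0.0037.

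**Figure D2:**
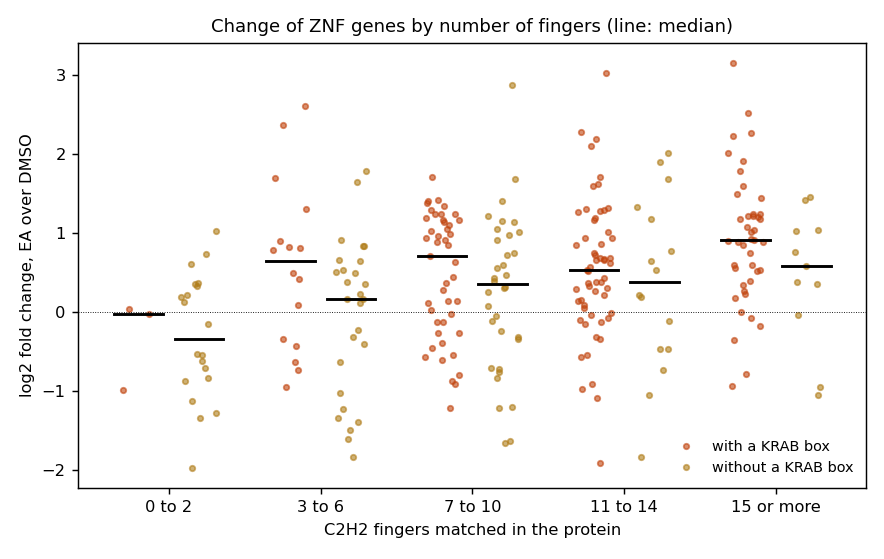
Log2 fold change of EA over DMSO (y axis) for each ZNF gene, by C2H2 fingers matched in its protein (x axis, 5 classes). Genes with and without a KRAB box are in separate colours, each with a line at its own median in each class. The KRAB lines stand at -0.02, 0.64, 0.71, 0.53 and 0.91. The medians of both colours together, which are not drawn, climb by class, -0.15, 0.35, 0.45, 0.53 and 0.89.

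The largest increases were found in KRAB genes. Of the 10 largest, 9 carry a KRAB box and 7 of these 9 are on chromosome 19. ZNF841 had 339, 326 and 279 CPM in the EA libraries, against 32.5, 35.5 and 38.3 CPM in the DMSO libraries. Every EA library was several times above every DMSO library (log2 fold change 3.15, SE 0.090, adjusted p = 2.07e-13, edgeR). ZNF430 had 82.7, 79.6 and 77.2 CPM in the EA libraries, against 9.30, 9.35 and 10.7 CPM in the DMSO libraries, and again the groups were far apart (log2 fold change 3.02, SE 0.087, adjusted p = 1.29e-13, edgeR). ZNF616, which neighbours ZNF841, had 83.4, 86.3 and 86.9 CPM in the EA libraries, against 15.5, 15.7 and 13.6 CPM in the DMSO libraries (log2 fold change 2.52, SE 0.082). The spread within each group was small beside the distance between the groups for these 3 genes.

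ZNF114 combined a large change with one of the highest levels, 296, 283 and 282 CPM in the EA libraries, against 55.5, 55.4 and 56.4 CPM in the DMSO libraries (log2 fold change 2.36, SE 0.064). ZNF267, on chromosome 16, had 155, 166 and 184 CPM in the EA libraries, against 36.9, 32.4 and 34.6 CPM in the DMSO libraries. Its EA libraries were all above 155 CPM and its DMSO libraries all below 37 CPM. ZNF212, on chromosome 7, had 89.2, 81.9 and 81.6 CPM in the EA libraries, against 13.9, 14.8 and 12.98 CPM in the DMSO libraries. ZNF160 (log2 fold change 2.23) and ZNF611 (2.19) also rose, and ZNF611 shares 1.9% of its 100-base words with ZNF600. ZNF286B (2.87) shares 38.8% of its words with ZNF286A, and ZNF585A (2.26) shares 10.8% with ZNF585B and overlaps ZNF420 on the other strand, so their reads may be partly those of the other gene.

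**Figure D3:**
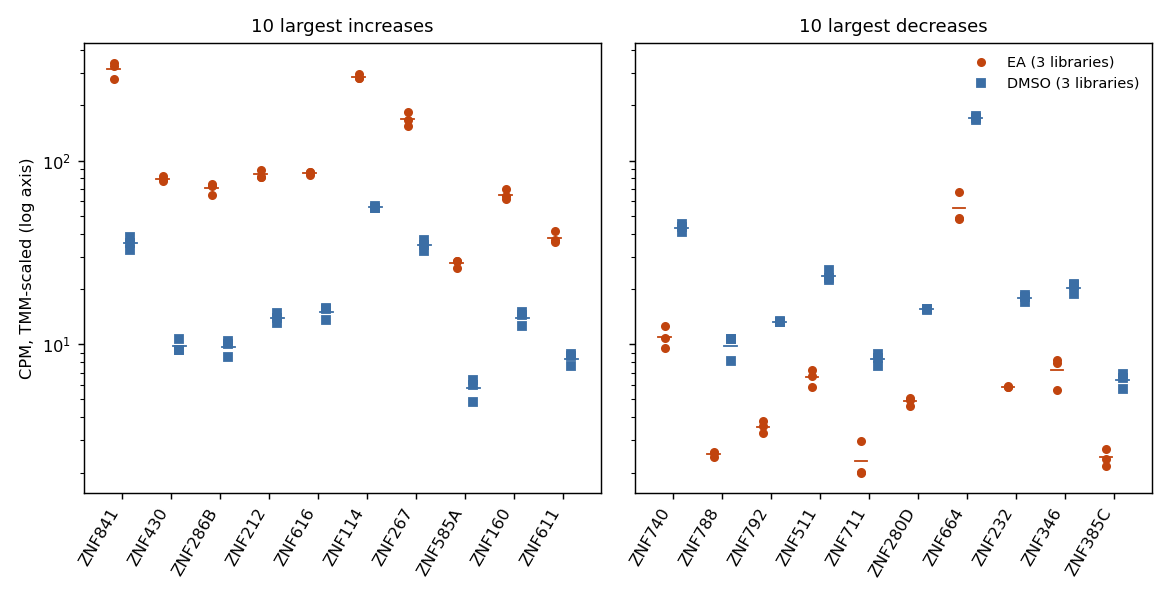
Level in each library (CPM with TMM-scaled library sizes, log axis) of the 10 ZNF genes with the largest increases (left panel) and the 10 with the largest decreases (right panel), with EA libraries drawn left of DMSO libraries for each gene. The groups are separate for all 20 genes; ZNF841 averaged 314.7 CPM with EA and 35.4 CPM with DMSO, and ZNF740 averaged 11.01 CPM with EA and 43.2 CPM with DMSO.

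Of the 10 largest decreases, ZNF792 has a KRAB box, ZNF788 has no coding sequence in GENCODE 29 and was not classed, and in the others no KRAB box was found. ZNF740, whose protein binds G-rich DNA, had 9.58, 10.9 and 12.6 CPM in the EA libraries, against 45.2, 43.3 and 40.97 CPM in the DMSO libraries (log2 fold change -1.97, SE 0.10, adjusted p = 8.76e-11, edgeR). The highest EA library was below the lowest DMSO library by a wide margin. It overlaps CSAD on the other strand, which had 1120 reads against 3795 of ZNF740 over the 6 libraries. ZNF792, which has a KRAB box, had 3.80, 3.29 and 3.59 CPM in the EA libraries, against 13.4, 13.2 and 13.3 CPM in the DMSO libraries (log2 fold change -1.90, SE 0.13). ZNF711, a relative of the X-linked factor ZFX, had 1.99, 2.97 and 2.01 CPM in the EA libraries, against 8.45, 7.57 and 8.85 CPM in the DMSO libraries.

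ZNF664 had the highest DMSO level per kilobase of transcript of all the ZNF genes (33.4 CPM per kb). Its level was 48.3, 48.9 and 67.9 CPM in the EA libraries, against 172, 166 and 175 CPM in the DMSO libraries (log2 fold change -1.63, SE 0.12). EA replicate 3 was the highest of the EA libraries for it, and still far below every DMSO library. ZNF664 overlaps CCDC92 on the other strand, which had 1852 reads against 15638 of ZNF664. The other genes at the top of that order changed little or rose: ZNF512B (28.2 CPM per kb in DMSO), ZNF217 (25.8 CPM per kb) and ZNF114 (22.5 CPM per kb).

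ZNF232 had 5.85, 5.93 and 5.81 CPM in the EA libraries, against 18.5, 18.2 and 16.9 CPM in the DMSO libraries (log2 fold change -1.61). ZNF788 (-1.96), ZNF511 (-1.83), ZNF280D (-1.66) and ZNF385C (-1.39) also fell, but each shares sequence or overlaps with another counted gene. These are ZNF20 for ZNF788, TUBGCP2 and ZNF511-PRAP1 for ZNF511, AC090517.4 for ZNF280D and NKIRAS2 for ZNF385C. The strand setting of the counting is unknown here, and reads of such pairs cannot be assigned to one gene with certainty. Among the 196 ZNF genes with neither an overlapping counted gene at 10% or more of their reads nor 5% or more of their words in another gene, 128 rose and 37 fell, with a median of 0.55.

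The sequences before the start sites of a pair of the largest increases (ZNF430, ZNF616) and a pair of the largest decreases (ZNF740, ZNF792) are shown because they place the motifs counted next. Each is the 250 bases upstream of the RefSeq start on GRCh38.p14, 5′ to 3′ in the direction of the gene, with motif matches on either strand in capitals. Bases from just after the start were found in a GENCODE 29 transcript for ZNF430 and ZNF740. For ZNF616 and ZNF792 they were not, so start and direction there rest on RefSeq alone. ZNF430 lies at chr19:21020407-21020656, plus strand, ZNF616 at chr19:52139939-52140188, minus strand, ZNF740 at chr12:53180472-53180721, plus strand, and ZNF792 at chr19:34964230-34964479, minus strand.
ZNF430: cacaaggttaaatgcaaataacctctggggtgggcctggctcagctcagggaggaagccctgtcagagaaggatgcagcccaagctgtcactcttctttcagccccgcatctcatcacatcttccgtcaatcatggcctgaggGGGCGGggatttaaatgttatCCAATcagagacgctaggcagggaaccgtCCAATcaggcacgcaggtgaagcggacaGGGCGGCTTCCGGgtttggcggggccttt
ZNF616: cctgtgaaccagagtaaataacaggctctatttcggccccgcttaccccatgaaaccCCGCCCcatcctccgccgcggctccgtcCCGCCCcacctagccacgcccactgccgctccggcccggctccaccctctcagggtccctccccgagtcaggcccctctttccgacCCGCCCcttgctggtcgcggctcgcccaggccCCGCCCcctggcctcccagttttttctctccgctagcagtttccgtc
ZNF740: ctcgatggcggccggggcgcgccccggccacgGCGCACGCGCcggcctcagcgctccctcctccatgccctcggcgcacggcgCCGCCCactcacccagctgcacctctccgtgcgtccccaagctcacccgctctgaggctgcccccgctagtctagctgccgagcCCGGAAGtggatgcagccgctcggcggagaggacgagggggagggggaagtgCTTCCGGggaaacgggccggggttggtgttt
ZNF792: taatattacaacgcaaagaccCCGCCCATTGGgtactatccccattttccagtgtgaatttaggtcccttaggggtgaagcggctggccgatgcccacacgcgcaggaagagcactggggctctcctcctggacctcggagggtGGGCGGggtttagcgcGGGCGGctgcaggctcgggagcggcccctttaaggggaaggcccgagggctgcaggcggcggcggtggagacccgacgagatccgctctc
In the ZNF430 promoter the capitals are GC boxes (GGGCGG) at 107 and 29 bases upstream, NFY boxes (CCAAT) at 86 and 57, and an ETS core (CCGGAAG, read on the other strand) at 23, which overlaps neither NFY box and adjoins the nearer GC box. The ZNF616 promoter holds 4 GC boxes, at 193, 165, 79 and 47 bases upstream. In the ZNF740 promoter they are an NRF1 palindrome at 218, a GC box at 167 and ETS cores at 83 and 31 bases upstream. The ZNF792 promoter has a GC box at 229 that adjoins an NFY box at 223, and GC boxes at 106 and 90. The same 250 bases of ZNF212, which rose more than ZNF616 (log2 fold change 2.60 against 2.52), held no match to any searched motif and are not printed. A match describes letters only.

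The ETS core CCGGAAG, searched on both strands over 250 bases before and 50 after the start, was in 100 of 236 ZNF genes with a promoter entry (42.4%). It is described because its share among them was above that in other genes, and it was picked from 11 motifs after their shares were seen. Of all 27305 genes with an entry 12.2% held it, and of 7907 expressed protein-coding genes 24.3%. Among ZNF genes that rose it was in 70 of 143 (49.0%), among those that fell in 14 of 56, and among those that did not pass in 16 of 37 (43.2%). Such a split was small among expressed protein-coding genes, 24.3% of the higher and 23.4% of the lower. KRAB promoters held it in 47.5% of 141 and the others in 34.7% of 95. None of these differences was tested.

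Chromosome 19 held 114 of the 273 genes, and a larger share of these than of the rest was called higher. On it 81 rose, 15 fell and 18 did not pass, with a median log2 fold change of 0.75. On the other chromosomes 85 of 159 rose, 48 fell and 26 did not pass, with a median of 0.30. The other expressed protein-coding genes of chromosome 19 did not lean that way: 167 of 521 rose and 274 fell, with a median of -0.27. Within the KRAB genes, 71 of 94 rose on chromosome 19 (median 0.86) and 38 of 70 elsewhere (median 0.39). Without KRAB the counts were 10 of 19 on chromosome 19 (median 0.38) and 47 of 89 elsewhere (median 0.22). Location and class were not separated by a test.

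Genes standing in clusters held a larger share of higher calls than genes outside them, a difference that was not tested. A run was taken as zinc finger genes in a row with at most 1 other protein-coding gene between neighbours. Only runs with 5 or more of these ZNF genes were used. Counts leave out the other zinc finger genes of a run: that of ZNF577 to ZNF816 has 28, of which 11 are counted. In such runs 72 of 96 genes rose and 8 fell (median 0.85), and outside them 94 of 177 rose and 55 fell (median 0.31). In the chromosome 19 run between ZNF577 and ZNF816, which holds ZNF841 and ZNF616, 10 of 11 rose, 8 of them 2-fold or more (median 1.34). Its exception was ZNF480, with 12.4, 13.1 and 11.8 CPM in the EA libraries, against 18.6, 18.2 and 20.02 CPM in the DMSO libraries (log2 fold change -0.61).

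The other runs differed. Between ZNF146 and ZNF573, 11 of 12 rose and none fell by edgeR's test (median 1.19). The run of ZNF266 to ZNF562 has 11 zinc finger genes, and all 5 counted here rose (median 1.05). That of ZNF283 to ZNF180 has 19, and all 7 counted here rose (median 0.54). The run with the most counted genes, ZNF419 to ZNF544, had 12 of 15 higher and 1 lower (median 0.60). From ZNF627 to ZNF791, 7 of 12 rose and 2 fell (median 0.39). In the run between ZNF101 and ZNF91, which holds ZNF430, 6 of 12 rose, 1 fell and 5 did not pass (median 0.37). Off chromosome 19, 4 of 5 rose between ZNF26 and ZNF268 on chromosome 12 and 5 of 7 between ZNF786 and ZNF746 on chromosome 7. Also on chromosome 7, 4 of 5 rose and 1 fell between ZNF680 and ZNF92 (median 0.93). Between ZNF251 and ZNF16 on chromosome 8, 1 rose, 1 fell and 3 did not pass (median -0.11). Neighbours in a run often share sequence by descent, and are not independent of each other.

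**Figure D4:**
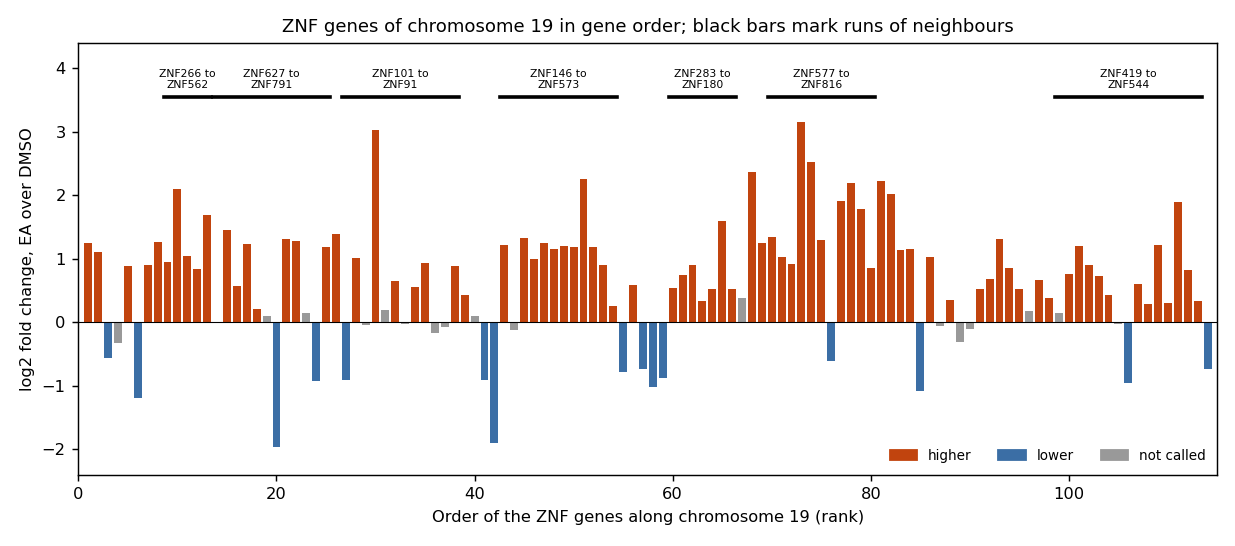
Log2 fold change of EA over DMSO (y axis) of the 114 ZNF genes on chromosome 19, in gene order along the chromosome (x axis, rank and not distance), coloured by call. Genes called higher (81) stand in long stretches, while the 15 called lower are spread along the chromosome, singly or in short groups.

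The genes were also grouped by the known role of their proteins. These lists are short, and their counts stand beside 60.8% higher and 23.1% lower among all 273 ZNF genes (median 0.47) and 40.5% in each direction among all tested genes (median 0.00). Of KRAB proteins known to act on transposons, imprints or the ZNF clusters themselves, 8 of 11 rose and 2 fell (median 0.59). ZNF91, which silences SVA elements, had 42.6, 44.5 and 47.2 CPM in the EA libraries, against 24.6, 23.1 and 24.97 CPM in the DMSO libraries. ZNF274, which brings SETDB1 to the ends of other ZNF genes, had 67.3, 70.7 and 65.4 CPM in the EA libraries, against 38.5, 38.4 and 37.8 CPM in the DMSO libraries. In both, all EA libraries lay above all DMSO libraries (log2 fold changes 0.88 and 0.83, SE 0.080 and 0.071). ZNF765 (1.16) and ZNF382 (1.25) rose as well; ZNF382 overlaps ZNF529 on the other strand and ZNF765 overlaps ZNF525.

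Of 16 genes listed as KRAB repressors of named targets, 8 rose, 3 fell and 5 did not pass (median 0.32). The list was made by role and not by matched KRAB boxes, and not every gene in it has a match. ZNF746, known as PARIS and a substrate of the ubiquitin ligase parkin, had 47.98, 47.7 and 48.4 CPM in the EA libraries, against 25.3, 25.97 and 25.9 CPM in the DMSO libraries. ZNF282, first described as a repressor of a retroviral promoter, had 90.9, 94.2 and 85.9 CPM in the EA libraries, against 50.8, 52.2 and 51.4 CPM in the DMSO libraries. ZNF268 rose by 0.89 (log2). ZNF500 was lower, with 7.03, 6.36 and 6.82 CPM in the EA libraries, against 15.3, 17.2 and 14.5 CPM in the DMSO libraries; its KRAB box is divergent and it was counted above among the genes without one.

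Among 13 activators and repressors without KRAB, 8 rose, 4 fell and 1 did not pass (median 0.35). ZNF143, an activator of many promoters of small nuclear RNA and protein-coding genes, had 55.2, 61.99 and 58.5 CPM in the EA libraries, against 23.2, 20.9 and 22.02 CPM in the DMSO libraries (log2 fold change 1.41, SE 0.081, adjusted p = 2.87e-10, edgeR). ZNF281 had 116, 119 and 112 CPM in the EA libraries, against 62.99, 63.5 and 66.8 CPM in the DMSO libraries. In neither did the groups overlap. ZNF397 (1.138) rose too but overlaps ZSCAN30, and ZNF740, described above, is the largest decrease of this list.

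Of 12 chromatin regulators, 7 rose (58.3%), 3 fell and 2 did not pass (median 0.21), shares close to those of all the ZNF genes. ZNF292, a very large zinc finger protein, had 144, 137 and 146 CPM in the EA libraries, against 43.95, 43.2 and 45.3 CPM in the DMSO libraries (log2 fold change 1.69, SE 0.066). ZNF335, part of histone H3 lysine 4 methyltransferase complexes, had 76.2, 74.97 and 81.3 CPM in the EA libraries, against 33.9, 34.4 and 34.96 CPM in the DMSO libraries. No other gene of the list was called higher by 2-fold or more. ZNF592 (0.72) and ZNF518A (0.49) rose less; after correction for GC content and length ZNF518A was at 0.05 and no longer called. ZNF217, a corepressor-binding protein amplified in some cancers, had 179.6, 177 and 197 CPM in the EA libraries, against 148, 146 and 155 CPM in the DMSO libraries (log2 fold change 0.30); it was no longer called without a low-count filter (0.17) or against a minimum fold of 1.2. ZNF512B was called at an adjusted p of 0.0363 (edgeR), but its groups overlapped, 191, 177 and 195 CPM in the EA libraries, against 159, 179 and 164 CPM in the DMSO libraries, and leaving out EA replicate 1 or 3 or DMSO replicate 1 or 3 ended the call (0.10 to 0.14), as did correction for GC content and length (-0.04).

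Of 7 ZNF genes whose proteins act on RNA or the spindle, 3 rose (42.9%), 3 fell (42.9%) and 1 did not pass (median 0.13), shares near the 40.5% in each direction of all tested genes. ZNF638, which takes part in splicing and in silencing of unintegrated retroviral DNA, had 313, 319.8 and 275 CPM in the EA libraries, against 147, 142 and 157 CPM in the DMSO libraries. ZNF106 had 303, 298 and 315 CPM in the EA libraries, against 158, 160.1 and 168 CPM in the DMSO libraries. ZNF346, a binder of double-stranded RNA, went the other way, with 8.21, 7.95 and 5.65 CPM in the EA libraries, against 18.8, 21.01 and 21.2 CPM in the DMSO libraries (log2 fold change -1.49). ZNF830 also fell (-1.28, SE 0.13).

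At the ribosome the 4 measured genes split 3 to 1. ZNF593, whose yeast relative Bud20 works in export of the large ribosomal subunit, had 4.05, 5.35 and 4.07 CPM in the EA libraries, against 12.1, 10.96 and 11.1 CPM in the DMSO libraries (log2 fold change -1.34). ZNF622, whose yeast relative Rei1 works in maturation of that subunit, had 54.3, 69.7 and 56.1 CPM in the EA libraries, against 36.7, 38.4 and 39.3 CPM in the DMSO libraries. ZNF598, the ubiquitin ligase that marks collided ribosomes, rose by 0.33 (log2, SE 0.075), and was no longer called against a minimum fold of 1.2. ZNF706 rose by 0.73.

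A list of 28 genes took in KRAB corepressors, heterochromatin genes and some broader chromatin factors. Of these 28, 10 rose (35.7%), 13 fell (46.4%) and 5 did not pass, with a median log2 fold change of -0.10. These shares were near those of the expressed protein-coding genes, 35.1% higher and 50.2% lower (median -0.21). TRIM28 itself had 358, 374 and 314 CPM in the EA libraries, against 380.2, 399.6 and 362 CPM in the DMSO libraries. The groups overlapped and the change did not pass (log2 fold change -0.13, SE 0.074, adjusted p = 0.131, edgeR), which does not show that it was equal. SETDB1 was lower in all EA libraries, with 29.4, 29.5 and 28.1 CPM in the EA libraries, against 35.97, 34.5 and 35.4 CPM in the DMSO libraries (log2 fold change -0.28, SE 0.077).

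The HP1 proteins CBX3 (-0.81), CBX5 (-0.78) and CBX1 (-0.26) fell. HDAC2, a histone deacetylase of several corepressor complexes, had 52.6, 55.5 and 45.1 CPM in the EA libraries, against 150.4, 141 and 147 CPM in the DMSO libraries, and ATRX, a remodeller that loads histone H3.3 at heterochromatin, fell by 0.87 on the log2 scale. MORC3, an ATPase that takes part in transposon silencing, was the largest increase, with 106, 109.7 and 118 CPM in the EA libraries, against 43.1, 40.1 and 42.6 CPM in the DMSO libraries (log2 fold change 1.41, SE 0.072). In each of these genes every EA library was on one side of every DMSO library.

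**Figure D5:**
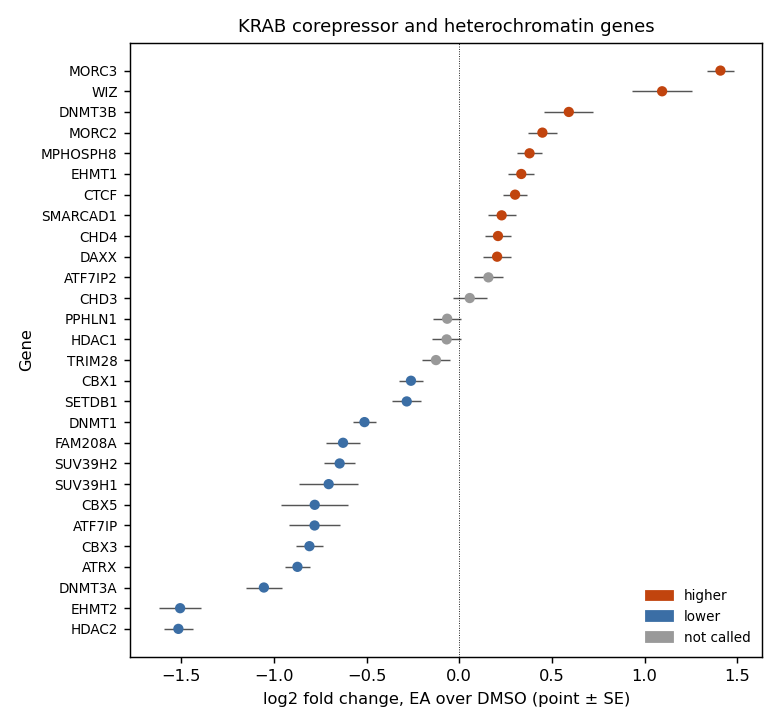
Log2 fold change of EA over DMSO with its SE (x axis, point and bar) for the 28 corepressor and heterochromatin genes (y axis, ordered by change), coloured by call. MORC3 (1.41) is at the top and HDAC2 (-1.52) at the bottom, and TRIM28 (-0.13) is among the 5 that did not pass.

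Of 47 listed relatives outside the ZNF numbers (ZFP, ZSCAN, ZKSCAN and similar genes), 39 were tested, of which 21 rose (53.8%), 8 fell (20.5%) and 10 did not pass (median 0.39). All tested genes were called higher in 40.5% and lower in 40.5% (median 0.00), and the list was not chosen by DMSO level. RBAK, a KRAB protein that binds the retinoblastoma protein, had 82.6, 86.2 and 85.3 CPM in the EA libraries, against 34.1, 32.2 and 35.1 CPM in the DMSO libraries. ZSCAN9 had 50.3, 50.5 and 49.4 CPM in the EA libraries, against 21.9, 20.7 and 19.3 CPM in the DMSO libraries. ZFP36L1 (log2 fold change 2.72), the largest increase of the list, ZFP36 (1.92) and ZFP36L2 (1.16) belong to another family. They carry CCCH fingers and bind AU-rich messenger RNA, which they destabilise, and are counted among the 21 that rose.

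Some ZNF genes stayed close to their DMSO level. ZNF12, a KRAB gene, had 45.4, 46.2 and 43.7 CPM in the EA libraries, against 46.1, 43.9 and 45.2 CPM in the DMSO libraries, with an SE of 0.072 on a log2 fold change near 0. ZNF627 (log2 fold change -0.02), ZNF738 (-0.02) and ZNF619 (0.03) were the next smallest, and their signs turned under some alternatives, as did that of ZNF12. ZNF619 overlaps ZNF620. ZNF207, a spindle protein and the ZNF gene with the highest DMSO level in CPM, had 232, 231 and 201 CPM in the EA libraries, against 202, 195 and 211 CPM in the DMSO libraries. Its groups overlapped and it did not pass (adjusted p = 0.110, edgeR).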

How the data were processed

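Gene expression was measured by paired-end RNA sequencing of NEBNext Ultra libraries from HepG2 cells, 3 with EA and 3 with DMSO. The authors deposited raw counts, whole reads per gene that are not normalised, made with bcl2fastq 2.17.1.14, cutadapt 1.9.1, HISAT and HTSeq 0.6.1 on hg19, per the submitters' processing notes. The annotation release and strand setting of the counting: not given in the sources used here. From these counts, genes passing filterByExpr (15648) were scaled by TMM and tested with edgeR 4.0.16 (R 4.3.3, robust quasi-likelihood, Benjamini-Hochberg over all tested genes). A level is a CPM over the TMM-scaled library size. An SE is the log2 fold change over the square root of F. The common biological coefficient of variation was 7.96%.

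The ZNF genes, the gene lists and the role groups were chosen with earlier results of these data known. Named were, of called genes with separate groups, the 10 largest increases and 10 largest decreases; the 4 highest DMSO levels per kilobase; 3 genes on each side of the threshold; up to 4 called genes with the smallest p per list; the 4 uncalled genes with the smallest change; and genes with an overlap or a reversed alternative. Named after seeing their values, beyond the rule, were TRIM28, SETDB1, CBX1, CBX5, ZFP36L2, ZNF185, ZNF207, ZNF480 and ZNF703. Listed symbols UHRF1, ZNF658 and ZNF255 were not matched.

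KRAB boxes, SCAN cores and fingers were found in translated GENCODE 29 coding sequences, a step added after the files were seen because no protein table was given. A KRAB box is a score of 0 bits or more on a matrix of 40 residues built from 229 ZNF genes, so divergent boxes are missed. Lengths, GC content, gene order and overlaps come from GENCODE 29 on GRCh38, another build than hg19, and carry no coordinates here. Promoters are RefSeq's on GRCh38.p14. The test was tried on simulated counts of 15232 genes, with 50 genes changed at each fold. It found 38 at 1.5-fold, 46 at 2-fold and all at 4-fold and 8-fold, with 11 false calls. Only these genes were changed in that trial, whereas 81.0% of all tested genes were called in the data. The number of false calls with so many changed genes was not tested. Alternatives were DESeq2 1.42.0, limma-voom (limma 3.58.1), other scalings, filters and thresholds, thinning, GC and length correction, a replicate block, other rules for the genes and each library left out.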

Additional observations from a re-analysis of the deposited data

How the results depend on the processing

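Of the 229 called ZNF genes, 190 kept their call and direction under every alternative fit (138 higher, 52 lower). Across all alternatives 116 to 217 ZNF genes were higher and 37 to 73 lower. These are counts out of different numbers of genes, 184 to 344 under the other rules. Of the called ZNF genes, 67.0% to 78.0% were higher, against 72.5% in the main fit. The median log2 fold change of the ZNF genes (0.467) stayed above 0 under all alternatives. It was 0.502 with DESeq2 and with RLE scaling, 0.477 with upper-quartile and 0.478 with library-size scaling, 0.507 with a filter of 1 CPM in 3 libraries, 0.491 after thinning to equal depth, and 0.419 to 0.458 with a library left out. Without a low-count filter it was 0.336, while the median of the 32015 genes then tested was 0.247, so the distance between the medians was smaller there. With correction for GC content and length it was 0.372, 6 called genes changed sign and 15 lost their call. With other rules it was 0.541 (2 CPM in DMSO), 0.440 (10 CPM) and 0.430 (chosen on DMSO replicate 1). It was 0.634 with 5 CPM on the mean of all libraries, a rule that lets genes in through a high EA level. That median and the 78.0% of higher calls under the same rule therefore lean higher by construction. Without overlapping or shared genes it was 0.545, an alternative chosen after seeing the data, which held 37 lower ZNF genes and 13 lower KRAB genes. At 10 CPM, which left 184 ZNF genes, 67 KRAB genes were higher. Higher corepressor genes numbered 10, 6 without a low-count filter and 5 against a minimum fold of 1.2.

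Replicate numbers did not pair the libraries (correlations of same-numbered deviations -0.084, 0.027 and -0.015). With the replicate block the median was 0.471, 163 ZNF genes were higher and 63 lower, and 225 of 229 calls were kept. Signs turned for genes near 0. ZNF627 was at 0.018 with DESeq2 and RLE, 0.023 at 1 CPM, 0.068 with GC and length correction and -0.191 to 0.071 with a library left out. ZNF738 was at 0.014 with DESeq2 and RLE, 0.020 at 1 CPM, 0.045 thinned and -0.113 to 0.047 with a library left out. ZNF12 was at -0.130 without a filter, -0.133 with GC and length correction and -0.038 to -0.002 with a library left out. ZNF619 was at -0.102 without a filter and -0.049 to 0.091 with a library left out. ZNF512B was at -0.038 with GC and length correction. The cause was not tested. Depth limits the ZNF genes near the threshold most, where an EA library may hold as few as 32 reads.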

Other observations

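Other promoter motifs were searched over the same window on both strands. The NRF1 palindrome was in 23.2% of 95 ZNF promoters without a KRAB box and in 10.6% of 141 with one, against 14.7% of expressed protein-coding genes. The TATA box TATAAA was in 5.08% of the ZNF promoters, against 7.80% of expressed protein-coding genes and 3819 of all 27305 genes with an entry. The NFY box CCAAT was in 50.8% of the ZNF promoters and 43.8% of expressed protein-coding genes, and the GC box GGGCGG in 72.5% and 78.8%. The core ACTACAA, bound by ZNF143, was in 7.20% of the ZNF promoters and 5.10% of expressed protein-coding genes. Median GC content of the promoters was 62.3% for the ZNF genes and 65.0% for expressed protein-coding genes. None of these differences was tested.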
